A study of Mus musculus with 2 samples.

Results

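The 33 genes described here build the secretory pathway and its stress response in the endoplasmic reticulum (ER). They were taken by symbol from a fixed list, out of 53608 symbols in the matrices, and all 33 were found. By role they comprise 4 chaperones (Hspa5, Hsp90b1, Calr, Canx), 4 protein disulfide isomerases (Pdia3, Pdia4, Pdia6, P4hb), 9 subunits of the translocation and signal peptidase machinery (Sec61a1, Sec61b, Sec61g, Ssr1 to Ssr4, Spcs1, Spcs2) and 3 KDEL receptors (Kdelr1 to Kdelr3). The other groups are 5 transcription factors (Creb3l1, Creb3l2, Xbp1, Ddit3, Atf4), 5 targets of the stress response (Herpud1, Sdf2l1, Dnajb9, Dnajc3, Manf) and 3 components of export from the ER (Sec23a, Sec24d, Mia3).

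The study profiled FVBN mouse kidney cells that carried the PDGF receptors alpha and beta, which mark fibroblasts and related mesenchymal cells, by 10x Chromium 3′ single-cell RNA sequencing. One library is labelled as taken 10 days after unilateral ureteral obstruction (UUO), a model in which a blocked ureter leads to kidney fibrosis, and 1 library is labelled sham. With 1 library per group no spread between animals exists, so there is no test and no p-value, and every interval below is an exact 95% interval that covers counting error only. The labels do not say how many animals entered a library, nor their age or sex.

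Proteins bound for secretion enter the ER through the Sec61 channel, lose their signal peptide, and are folded by chaperones and disulfide isomerases before vesicles coated with COPII carry them to the Golgi. KDEL receptors return escaped chaperones to the ER. When unfolded protein builds up, the sensors Ire1, Perk and Atf6 start the unfolded protein response, which raises chaperones through Xbp1 and Atf6 and stress genes through Atf4 and Ddit3. Fibroblasts that secrete collagen load this pathway heavily, since procollagen is long, needs proline hydroxylation by an enzyme that contains P4hb, and leaves the ER with the help of Mia3.

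Promoter sequence was examined because Xbp1, Atf6 and Atf4 act through known elements, and the windows below belong to genes whose levels are given later. RefSeq promoter windows (GRCm38.p6, 250 bases before to 50 after the transcription start) were matched for 28 of the 33 genes. Both strands were searched for the ER stress response element ERSE (CCAAT and CCACG with 9 bases of any kind between them), ERSE-II (ATTGG and CCACG with 1 base between them), the unfolded protein response element UPRE (TGACGTGG) and the C/EBP-ATF response element CARE (TGATGCAA). ERSE, ERSE-II and the reverse of UPRE share the letters CCACG, but no matched sites overlapped. ERSE was found in 6 of the 28 windows (21.4%), those of Hspa5, Calr, Hsp90b1, Canx, Pdia6 and Dnajc3, against 0.119% of all 32851 windows. UPRE was found in 3 windows (10.7%), those of Sec24d, Sec23a and Kdelr3, against 0.676% of all windows. Herpud1 alone held ERSE-II (0.0365% of all windows) and CARE (0.895%). The genes were listed for their roles in the secretory pathway and its stress response, and the elements searched are known ones of that response. The contrast with all windows is therefore not independent of the choice of genes, and how far that choice set it was not tested. In the lines that follow, capitals mark the match, and each sequence runs 5′ to 3′ on the strand of its gene.
Hspa5, ERSE, chr2:34772005-34772063, plus strand: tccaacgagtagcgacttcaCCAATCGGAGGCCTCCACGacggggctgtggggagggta
Calr, ERSE on the opposite strand, chr8:84847055-84847113, minus strand: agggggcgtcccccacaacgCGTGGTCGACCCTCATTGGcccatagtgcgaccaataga
Canx, ERSE, chr11:50325780-50325838, minus strand: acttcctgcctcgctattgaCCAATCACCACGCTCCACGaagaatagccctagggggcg
Dnajc3, ERSE, chr14:118937807-118937865, plus strand: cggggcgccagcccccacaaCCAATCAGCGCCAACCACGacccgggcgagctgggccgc
Herpud1, ERSE-II, chr8:94386357-94386407, plus strand: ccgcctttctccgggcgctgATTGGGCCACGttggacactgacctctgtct
Kdelr3, UPRE on the opposite strand, chr15:79516358-79516405, plus strand: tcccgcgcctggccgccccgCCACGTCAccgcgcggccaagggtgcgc
Sec24d, UPRE, chr3:123267450-123267497, plus strand: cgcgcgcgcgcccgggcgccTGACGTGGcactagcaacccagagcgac

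These matches are letters in a window and say nothing of binding. The Hspa5 match began 65 bases before the transcription start, and the other ERSE matches began 98 to 212 bases before it. The UPRE matches lay close to the start, at 30 bases before it in Kdelr3, 26 before it in Sec24d and 6 after it in Sec23a.

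**Figure D1:**
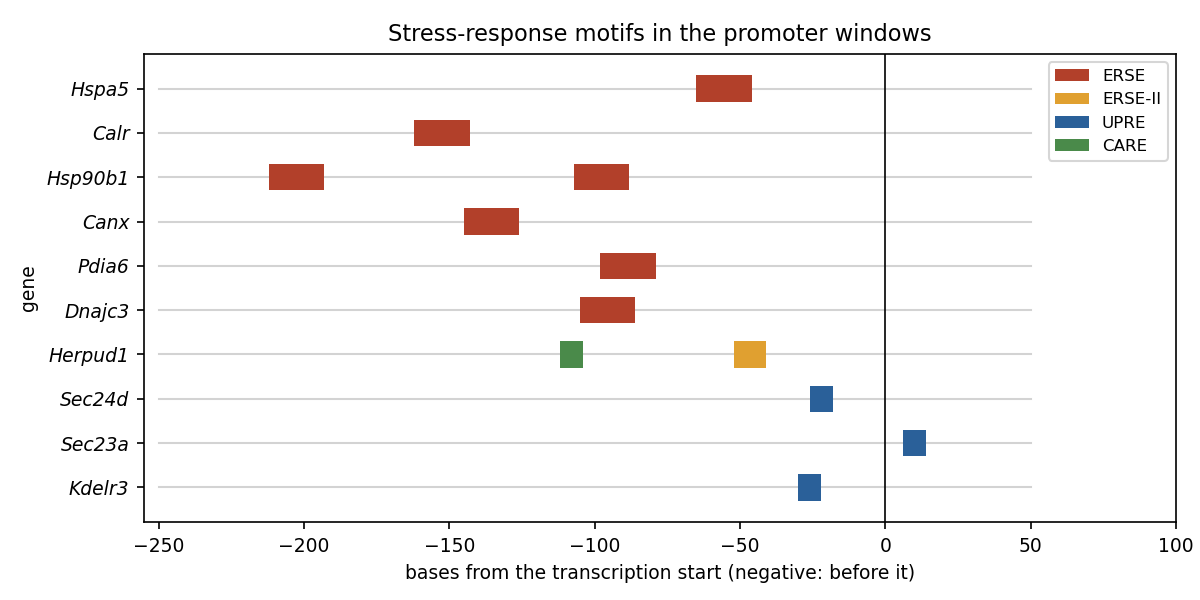
Position of each motif match (coloured boxes, to scale) in the promoter windows of the 10 genes that held one, in bases from the transcription start. The 7 ERSE matches, 2 of them in Hsp90b1, all lie before the start, and the 3 UPRE matches lie within 30 bases of it.

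The library labelled UUO held 1291 barcodes with 6023072 UMIs and the library labelled sham 10812 barcodes with 85359332 UMIs. After filters 1043 and 9748 cells remained, with medians of 4143 and 7571.5 UMIs. Fibroblast-class cells, called by marker UMIs, numbered 700 in the library labelled UUO (67.1%) and 8325 in that labelled sham (85.4%), so the sort held other cells too. Of the classes with at least 50 cells, the UUO-labelled library also held 65 endothelial and 84 proximal tubule cells, and the sham-labelled library 337 endothelial, 277 macrophage or dendritic and 198 loop or distal tubule cells. The libraries shared 16 barcodes, 12 of them among retained cells. Of 6 injury and fibrosis genes with UMIs in both libraries, 4 went against the labels in fibroblast-class cells. Spp1 had 163 CPM (UMIs of the gene scaled to the same total in every sum of cells) in the library labelled UUO against 13016 CPM in that labelled sham, Timp1 65.5 against 715 CPM, Acta2 321 against 1545 CPM and Lcn2 3.79 against 14.4 CPM. In the labelled direction, Ccn2 had 737 against 183 CPM and Postn 149 against 80.0 CPM. Whether the labels are exchanged cannot be told from these files, so the libraries are named by their labels throughout, and no difference is read as an effect of obstruction.

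In fibroblast-class cells the 33 genes together made up 79.2 of every 10000 UMIs in the library labelled UUO (33381 UMIs) and 73.4 in that labelled sham (490297 UMIs). Fibrillar collagens made up 0.508% of UMIs in the library labelled UUO and 0.913% in that labelled sham. At 1.5-fold or more, with 5 CPM added to both levels, 4 genes were higher in the library labelled UUO (Hspa5, Creb3l1, Ddit3 and Sdf2l1) and 6 were lower (P4hb, Sec61b, Ssr3, Spcs1, Kdelr1 and Kdelr3). Of all 9603 genes at 10 CPM or more, 19.6% passed that fold higher and 12.1% lower, so the counts among the 33 genes are near the background. A ratio above 1 was found for 19 of the 33 genes, against 48.9% of all genes, and the median log2 ratio was 0.11 for the 33 genes and -0.02 for all genes.

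**Figure D2:**
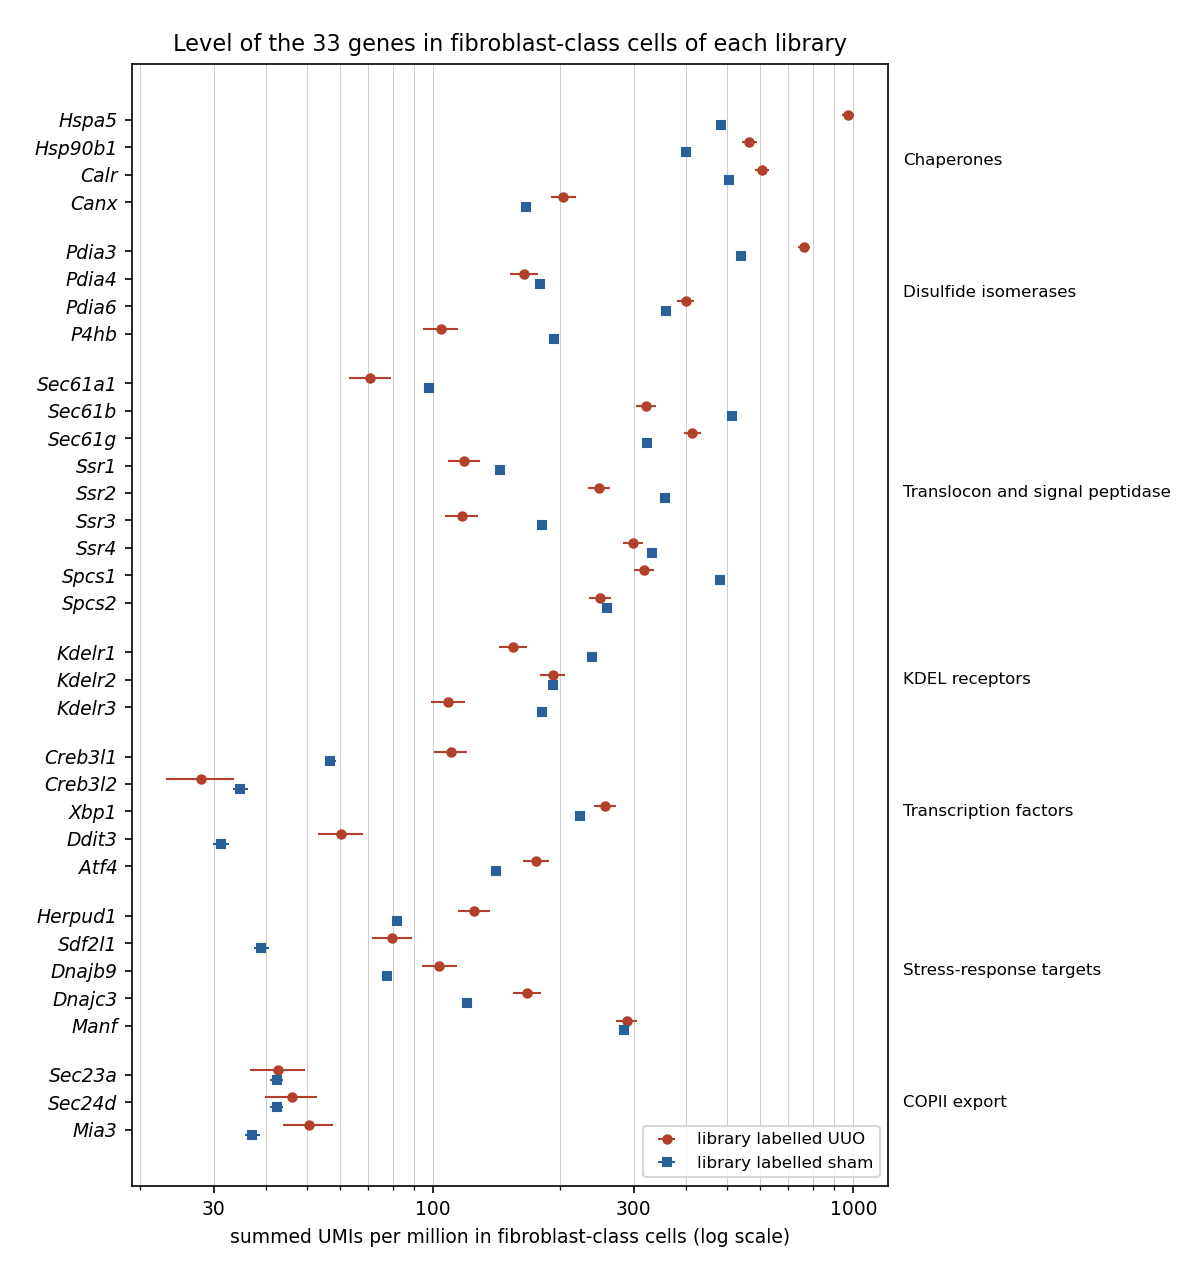
Level of each of the 33 genes in fibroblast-class cells, as CPM of summed UMIs on a log axis, in the library labelled UUO (circles, 700 cells) and in that labelled sham (squares, 8325 cells), with exact Poisson 95% intervals. Hspa5 stands at 971 against 484 CPM, and 8 of 9 translocation genes sit to the left of their sham-labelled values (Ssr4 does not, at a log2 ratio of 0.03, when cells are thinned to 1000 UMIs).

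Among the chaperones all 4 had ratios above 1, except that Calr had a log2 ratio of -0.02 under trimmed-mean (TMM) scaling. Hspa5 encodes BiP, the Hsp70 chaperone that holds the stress sensors inactive until unfolded protein draws it away (chr2:34771970-34777547, plus strand, mm10). It stood at 971 CPM (interval 941 to 1001) in the library labelled UUO and 484 CPM (479 to 489) in that labelled sham, a ratio of 2.01 (1.94 to 2.07). Hsp90b1, the ER form of Hsp90, stood at 565 CPM in the library labelled UUO and 400 CPM in that labelled sham, a ratio of 1.41 (1.36 to 1.47). The lectin chaperones Calr and Canx, which hold newly made glycoproteins, had smaller ratios of 1.20 and 1.22. Hspa5 thus differed more between the libraries than the other 3. Genes known to be induced by tissue dissociation were also higher, with a median log2 ratio of 0.51 over 12 genes and 4 of them past 1.5-fold. In cells at or below the median share of these dissociation genes the log2 ratio of Hspa5 was 0.82, beside 1.00 in all cells. That median was taken within each library, so the libraries were not matched for these genes. Over all alternatives the log2 ratio of Hspa5 fell as low as 0.66. The part of dissociation in the difference was not tested.

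The disulfide isomerases were split. Pdia3, which works with Calr and Canx, stood at 763 CPM in the library labelled UUO and 541 CPM in that labelled sham (ratio 1.41, 1.36 to 1.46). P4hb, which is also the beta subunit of collagen prolyl 4-hydroxylase, was lower at 104 CPM (94.6 to 114) in the library labelled UUO, against 193 CPM (190 to 197) in that labelled sham. That is a ratio of 0.538 (0.488 to 0.592), the lowest of the 33 genes. Pdia4 and Pdia6 had ratios of 0.917 and 1.11.

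Genes of translocation and signal peptide removal had lower levels in the library labelled UUO in 8 of 9 cases, with a median log2 ratio of -0.44 (Ssr4 alone turned, to 0.03, when cells were thinned to 1000 UMIs). Sec61b, the beta subunit of the channel, had 321 CPM in the library labelled UUO and 515 CPM in that labelled sham (ratio 0.624, 0.591 to 0.659). Spcs1, of the signal peptidase complex, had 317 against 480 CPM. Ssr3, of the TRAP complex beside the channel, had 117 against 181 CPM. These 3 were the translocation genes past 1.5-fold, and Sec61a1, Ssr1, Ssr2, Ssr4 and Spcs2 had ratios of 0.722, 0.822, 0.695, 0.898 and 0.960. The exception was Sec61g at 413 against 322 CPM. Over all barcodes, 47.6% of its nonzero values in the library labelled UUO and 50.6% in that labelled sham were not whole, as alevin leaves UMIs that map to more than 1 gene.

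Kdelr1 and Kdelr3, receptors that return chaperones to the ER, were also lower. Kdelr3 had 108 CPM (98.7 to 119) in the library labelled UUO and 181 CPM (178 to 184) in that labelled sham, a ratio of 0.599 (0.544 to 0.657). Kdelr1 had 155 against 238 CPM, a ratio of 0.649. Kdelr2 stood at 192 CPM (179 to 206) against 193 CPM (190 to 196), with a log2 ratio of up to 0.41 under the alternatives.

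Of the transcription factors, Creb3l1 and Ddit3 passed 1.5-fold. Creb3l1 (OASIS) is a membrane-bound factor that is cut out of the Golgi membrane on stress and is needed for type I collagen in mouse bone (chr2:91982328-92024502, minus strand, mm10). It had 110 CPM (100 to 121) in the library labelled UUO and 56.9 CPM (55.1 to 58.8) in that labelled sham, a ratio of 1.93 (1.75 to 2.13), while its relative Creb3l2 had 28.0 against 34.7 CPM. Ddit3 encodes CHOP, the factor linked to cell death under lasting ER stress, and had 60.2 (53.1 to 68.1) against 31.3 (30.0 to 32.7) CPM, a ratio of 1.92 (1.68 to 2.19). Atf4 and Xbp1 had ratios of 1.25 and 1.15. Their activity is set by translation and by splicing, which 3′ UMI counts do not read.

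All 5 stress-response targets had ratios above 1, except that Manf had a log2 ratio of -0.25 under TMM scaling and Dnajb9 one of -0.02 in cells of 3000 to 9000 UMIs. Sdf2l1, which keeps BiP clients soluble, had 79.9 CPM (71.6 to 88.9) in the library labelled UUO and 39.0 CPM (37.5 to 40.5) in that labelled sham, a ratio of 2.05 (1.82 to 2.30). With 5 CPM added its log2 ratio was 0.95, beside 1.00 for Hspa5. Herpud1, of ER-associated degradation, had 125 against 82.1 CPM, which with 5 CPM added is just under 1.5-fold (log2 0.58). Dnajc3 and Dnajb9, co-chaperones of BiP, had ratios of 1.39 and 1.33, and Manf, a secreted BiP cofactor, had 1.01. The COPII coat genes Sec23a and Sec24d had ratios of 1.01 and 1.09, and Mia3 (TANGO1) 1.36 (1.18 to 1.57).

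The 6 genes whose promoters held ERSE all had ratios above 1 (log2 0.15 to 1.00), and the 3 with UPRE had log2 ratios of -0.71 (Kdelr3), 0.01 (Sec23a) and 0.11 (Sec24d). Of the 10 genes past 1.5-fold, 4 stayed past it under all 11 alternatives tried, namely Hspa5, Creb3l1 and Ddit3 higher and P4hb lower. TMM scaling moved the median of all genes to -0.26, beside -0.02 without it, on the log2 scale, and Calr, Pdia6, Xbp1, Manf, Sec23a and Sec24d then had ratios below 1.

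Neighbouring parts of the pathway were set beside the 33 genes. Of all genes tested, 19.6% passed 1.5-fold higher and 12.1% lower, and several of the counts below are near those shares. Of 7 fibrillar collagens that reached 10 CPM, 6 passed 1.5-fold lower in the UUO-labelled library and Col5a3 passed it higher. Genes that modify and fold collagen had 3 lower and 0 higher among 14, with Fkbp10 at 76.4 against 157 CPM and P4ha3 at 0.712 (3 UMIs) against 19.8 CPM, a ratio of 0.0359 (0.00738 to 0.105). Other Atf6 and Xbp1 targets had 3 higher and 1 lower among 18, with Hyou1, a large ER chaperone, at 28.0 against 8.87 CPM, and Pdia5 at 26.8 against 67.7 CPM. Atf4 targets had 6 higher and 1 lower among 13, with Atf3 at 478 against 110 CPM and Phgdh, of serine synthesis, at 23.5 against 4.19 CPM. The dissociation genes given above had 4 higher and 0 lower among 12. Other COPII genes had 1 in each direction among 18, and COPI coat genes 1 higher among 10. Oligosaccharyltransferase genes, which add glycans, had 3 higher and 0 lower among 10, with Magt1 at 66.9 against 32.7 CPM. Genes of signal recognition and other translocation steps had 1 higher and 0 lower among 15, with the signal peptidase subunit Sec11c at 73.3 against 31.9 CPM. The stress sensors and the proteases that cut Atf6 had 2 higher and 0 lower among 5, with Mbtps2 at 79.2 against 24.7 CPM and Eif2ak3 (Perk) at 15.4 against 7.70 CPM.

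Within each library, the 33 genes were next compared between cell classes, which were called from markers that include none of them. Most were highest in fibroblast-class cells, and the gap was widest for Creb3l1 and Kdelr3. Among the 3 classes with at least 50 cells in the library labelled UUO, 25 of the 33 genes were highest in fibroblast-class cells, beside 29% of all 11282 genes at 10 CPM or more in any of them. Among the 4 such classes in that labelled sham 28 were, beside 20.7% of 11119 genes. Summed over the 33 genes, endothelial cells had 55.7 and proximal tubule cells 51.3 per 10000 UMIs in the library labelled UUO, against 79.2 in fibroblast-class cells. In the library labelled sham, endothelial, macrophage or dendritic, and loop or distal tubule cells had 57.3, 55.0 and 53.4, against 73.4 in fibroblast-class cells.

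UUO-labelled endothelial cells had 0 of the 33 genes at least 1.5-fold higher than fibroblast-class cells and 14 lower, where all genes tested had 26.7% higher and 20.6% lower. Proximal tubule cells there had 1 higher and 18 lower, beside 22.7% and 40.5% of all genes. Sham-labelled endothelial cells had 0 higher and 9 lower, beside 21.7% and 16.4% of all genes. Macrophage or dendritic cells had 2 higher and 16 lower, beside 15.3% and 34.9%, and loop or distal tubule cells 0 higher and 10 lower, beside 21.3% and 20.6%. The shares lower among the 33 genes were thus above the background in all 5 comparisons, and the shares higher below it. Ratios above 1 were found for 6 and 3 of the 33 genes in endothelial and proximal tubule cells of the library labelled UUO, beside 57.4% and 38.4% of all genes. They were found for 4, 2 and 3 of the 33 in endothelial, macrophage or dendritic, and loop or distal tubule cells of that labelled sham, beside 59.4%, 32.8% and 54% of all genes.

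**Figure D3:**
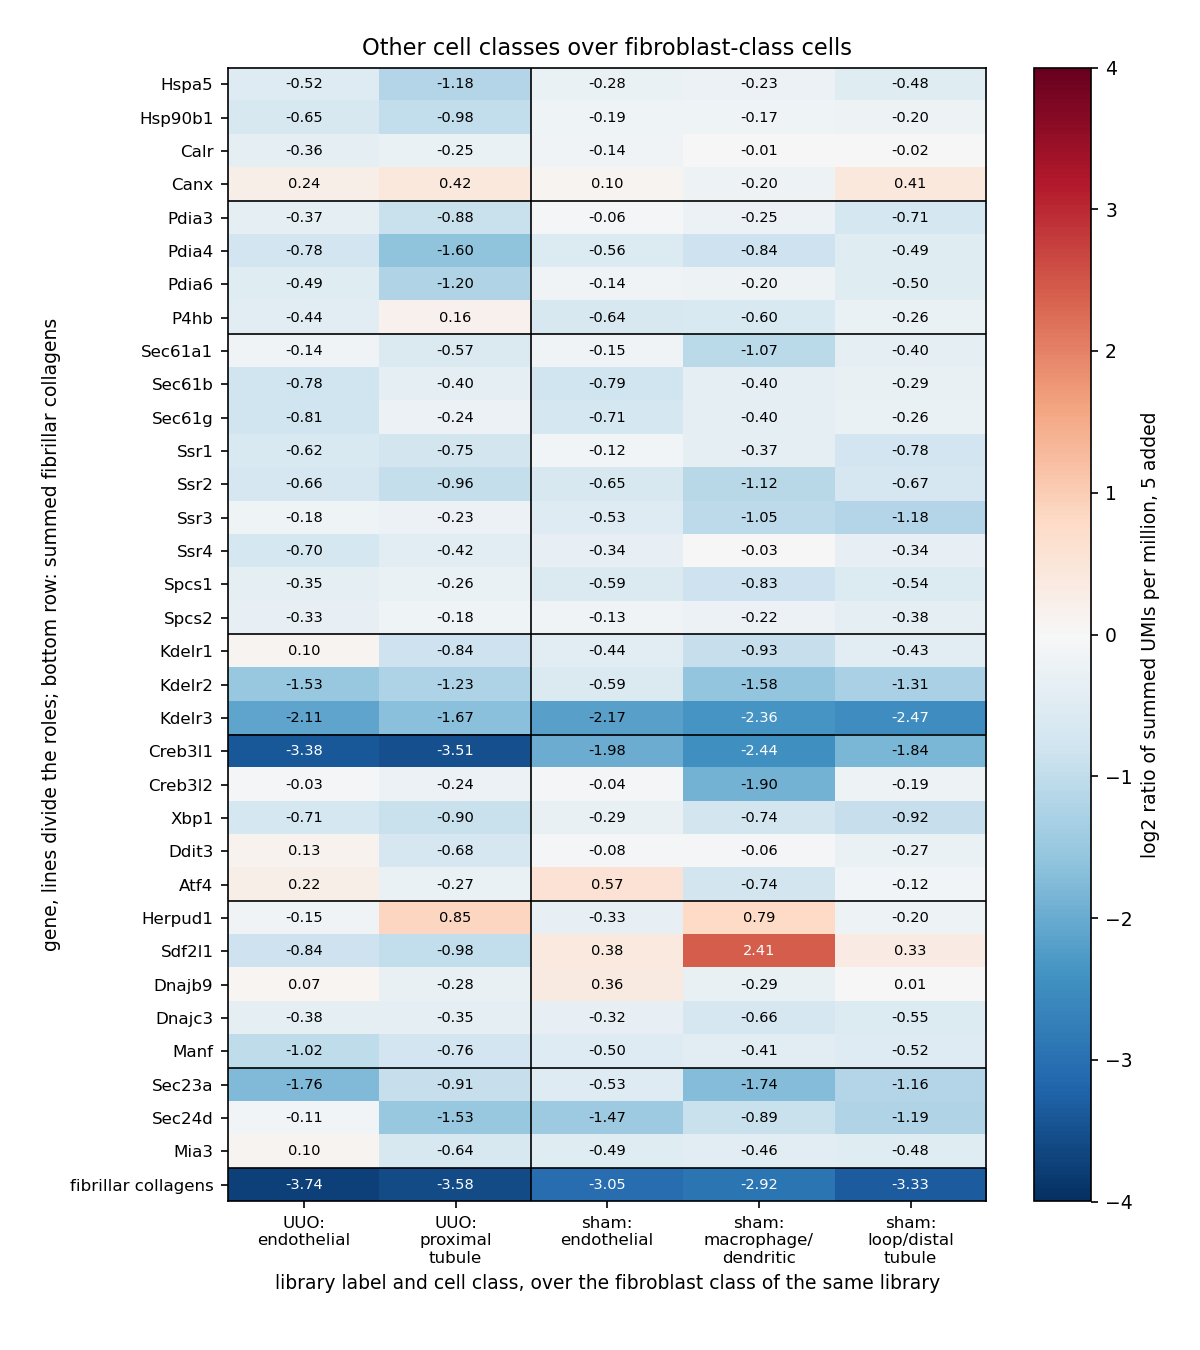
Log2 ratio (5 CPM added) of each cell class over fibroblast-class cells of the same library, for the 33 genes in order of role and, in the bottom row, for the summed fibrillar collagens. Kdelr3 (-1.67 to -2.47) and Creb3l1 (-1.84 to -3.51) are blue in all 5 columns, and Sdf2l1 in macrophage or dendritic cells is red at 2.41.

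With 5 CPM added, Creb3l1 had the lowest ratio of the 33 genes in 3 of the 5 comparisons and Kdelr3 in the other two. In UUO-labelled cells Creb3l1 had 6.05 CPM in endothelial cells (2 UMIs) and 5.09 CPM in proximal tubule cells (2 UMIs), against 110 CPM in fibroblast-class cells (464 UMIs), ratios of 0.0550 (0.00664 to 0.200) and 0.0463 (0.00558 to 0.168). In sham-labelled cells it had 10.7, 6.39 and 12.3 CPM in endothelial, macrophage or dendritic, and loop or distal tubule cells, against 56.9 CPM in fibroblast-class cells. A UMI of Creb3l1 was seen in 2 of 65 endothelial cells (3.08%, 0.37 to 10.7%) and in 264 of 700 fibroblast-class cells (37.7%, 34.1 to 41.4%) of the library labelled UUO. Median depths of these classes were 5188 and 4998.5 UMIs. With each sham-labelled cell thinned to 1000 UMIs, 1 of 322 endothelial cells (0.311%) and 428 of 8161 fibroblast-class cells (5.24%) had a UMI, where 3.86% and 31.4% had one unthinned.

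RNA free in the droplets can give such UMIs, and the fibrillar collagens, which these classes should largely lack, were taken as a floor for it. Endothelial and proximal tubule cells of the library labelled UUO held collagen at 7.39% and 8.27% of the fibroblast-class level, and Creb3l1 at 5.50% and 4.63%, which is below that floor. With 2 UMIs in each class the intervals above reach past it, so expression of Creb3l1 in these classes was not detectable at this depth. In the library labelled sham, collagen in endothelial, macrophage or dendritic, and loop or distal tubule cells stood at 12%, 13.2% and 9.88% of the fibroblast-class level. Creb3l1 stood there at 18.8%, 11.2% and 21.7%, so only its value in macrophage or dendritic cells lay under the floor. In these cells (9 UMIs) and in endothelial cells (15 UMIs) the counting interval takes in the floor. The related factor Creb3l2 stood in endothelial cells at 97.3% of the fibroblast-class level in the library labelled UUO (9 UMIs, ratio interval 0.434 to 1.91) and at 96.7% in that labelled sham (47 UMIs, 0.708 to 1.29), but in sham-labelled macrophage or dendritic cells at 16.3% (8 UMIs). Creb3l1 made up 18.2% (2.28 to 51.8%) of the UMIs of both factors in endothelial cells of the library labelled UUO against 79.7% (76.2 to 82.9%) in its fibroblast-class cells, and 24.2% (14.2 to 36.7%) against 62.1% (60.9 to 63.3%) in the library labelled sham.

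The 3 KDEL receptors differed in pattern. Kdelr3 was at least 1.5-fold lower in all 5 comparisons, at 21.2 and 30.5 CPM in endothelial and proximal tubule cells of the library labelled UUO against 108 CPM in fibroblast-class cells. In sham-labelled cells it had 36.5, 31.2 and 28.5 CPM in endothelial, macrophage or dendritic, and loop or distal tubule cells, against 181 CPM in fibroblast-class cells. These values are 15.8% to 28.2% of the fibroblast-class level and, as point values, above the collagen floor of each class. The counting interval in macrophage or dendritic cells (44 UMIs) takes in the floor, and the value in UUO-labelled endothelial cells rests on 7 UMIs. Kdelr1 differed less, with log2 ratios of 0.10 to -0.93, and Kdelr2 lay between, at -0.59 to -1.58. Kdelr3 accounted for 8.43% and 15.8% of receptor UMIs in endothelial and proximal tubule cells of the library labelled UUO, against 23.8% (21.9 to 25.8%) in fibroblast-class cells. In sham-labelled cells it accounted for 10.8% (8.15 to 14.0%), 14.5% (10.8 to 19.0%) and 10.2% (8.02 to 12.8%) in endothelial, macrophage or dendritic, and loop or distal tubule cells, against 29.6% (29.1 to 30.0%) in fibroblast-class cells.

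Of the export genes, Sec23a and Sec24d were below the fibroblast class in all 5 comparisons and Mia3 in 4. Sec23a, of the inner COPII coat, had log2 ratios of -1.76 and -0.91 in endothelial and proximal tubule cells of the library labelled UUO, from 3 and 8 UMIs, and of -0.53 to -1.74 in the 3 classes of that labelled sham. Sec24d, the coat subunit that selects cargo, was close to the fibroblast-class level in endothelial cells of the library labelled UUO, at 42.4 against 46.0 CPM, but stood at 12.2 against 42.4 CPM in those of the library labelled sham. Mia3 had 54.5 against 50.5 CPM in UUO-labelled endothelial cells (ratio 1.08, 0.627 to 1.75) and ratios of 0.605 to 0.688 in the other 4 comparisons. All 3 genes with a UPRE match, Kdelr3, Sec23a and Sec24d, had ratios below 1 in all 5 comparisons, apart from Sec24d at a log2 ratio of 0.22 in UUO-labelled endothelial cells when each cell had equal weight. Of the 33 genes, 27 to 31 were below 1 in each of these comparisons, so this does not set the 3 genes apart.

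A few genes were higher outside the fibroblast class. Sdf2l1 had 229 CPM (205 to 256) in macrophage or dendritic cells of the library labelled sham against 39.0 CPM in fibroblast-class cells, a ratio of 5.87 (5.22 to 6.60). A UMI of Sdf2l1 was found in 14.8% of those macrophage or dendritic cells and in 3.93% of fibroblast-class cells, each thinned to 1000 UMIs (54.5% and 24.0% unthinned). Herpud1 had 145 against 82.1 CPM in the same classes, and 229 CPM (184 to 282) in proximal tubule cells of the library labelled UUO against 125 CPM in its fibroblast-class cells. Canx had ratios of 1.08 to 1.35 in 4 of 5 comparisons, though below 1 in endothelial cells of both libraries under TMM scaling, and Atf4 reached 212 against 141 CPM in endothelial cells of the library labelled sham. Hspa5 itself was lower in all 5 comparisons, with ratios of 0.695 and 0.438 in endothelial and proximal tubule cells of the library labelled UUO and of 0.714 to 0.850 in the sham-labelled classes.

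Collagen folding partners, a separate list, had 6 of 13 past 1.5-fold lower in endothelial cells and 13 of 13 in proximal tubule cells of the library labelled UUO, with none higher. Among sham-labelled cells 13 of 14 passed it lower and 1 higher in endothelial cells, and 13 of 14 and 14 of 14 lower in macrophage or dendritic and in loop or distal tubule cells. Of all genes tested, 20.6% and 40.5% passed it lower in these UUO-labelled classes, and 26.7% and 22.7% higher. For the sham-labelled classes, in the same order, the shares were 16.4%, 34.9% and 20.6% lower, and 21.7%, 15.3% and 21.3% higher. Pericyte or smooth muscle cells were too few for a count (23 and 30 cells), and their summed levels were 40.9 per 10000 UMIs in the library labelled UUO and 54.1 in that labelled sham.

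The last comparison set the 33 genes against collagen within the fibroblast class. Cells of each library were put in 5 equal bins by the share of their UMIs from 11 fibrillar collagens, which were then left out of the denominator. The bins held 140 cells each in the library labelled UUO, with median collagen shares of 0.0753% in the lowest to 0.978% in the highest, and 1665 cells each in that labelled sham, with 0.366% to 1.66%. The 33 genes made up a larger share of the remaining UMIs in the highest than in the lowest bin of both libraries. From the lowest to the highest bin the 33 genes summed to 69.3, 70.4, 81.3, 81.2 and 89.6 per 10000 UMIs in the library labelled UUO, and to 67.8, 71.3, 72.9, 75.3 and 83.5 in that labelled sham. The highest over the lowest bin gave 1.29 (1.24 to 1.34) in the library labelled UUO and 1.23 (1.22 to 1.24) in that labelled sham. Per cell, Spearman's rho between the collagen share and the share of the 33 genes was 0.269 over 700 cells and 0.221 over 8325 cells, as a description of cells that share a library. The same rho between collagen share and UMIs per cell was 0.254 in the library labelled UUO and 0.0350 in that labelled sham.

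Most of these steps were small. In the library labelled UUO, 6 genes were at least 1.5-fold higher in the highest bin and 1 was lower, where all genes tested had 13.3% higher and 26.1% lower. Among sham-labelled cells 1 was higher and 0 were lower, beside 6.34% and 2.76% of all genes. A ratio above 1 was more common: 28 of the 33 genes had a ratio above 1 in the library labelled UUO, against 37.1% of all genes, and 29 in that labelled sham, against 55.1%. Over the 12 alternatives the number above 1 was 23 to 30 in the library labelled UUO and 23 to 29 in that labelled sham. Of the 28 genes 12 fell below 1 under at least 1 alternative, among them P4hb, Sec61b, Kdelr2, Sec24d and Mia3, and 6 did so without the thinning to 1000 UMIs. Of the 29 genes 6 did, namely Sec61b, Sec61g, Ssr4, Spcs1, Kdelr1 and Sdf2l1. In both libraries at once 25 of the 33 genes (75.8%) had a ratio above 1, against 24.0% of the 8254 genes tested in both. The median log2 ratio was 0.30 for the 33 genes and -0.21 for all genes in the library labelled UUO, and 0.31 and 0.03 in that labelled sham.

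**Figure D4:**
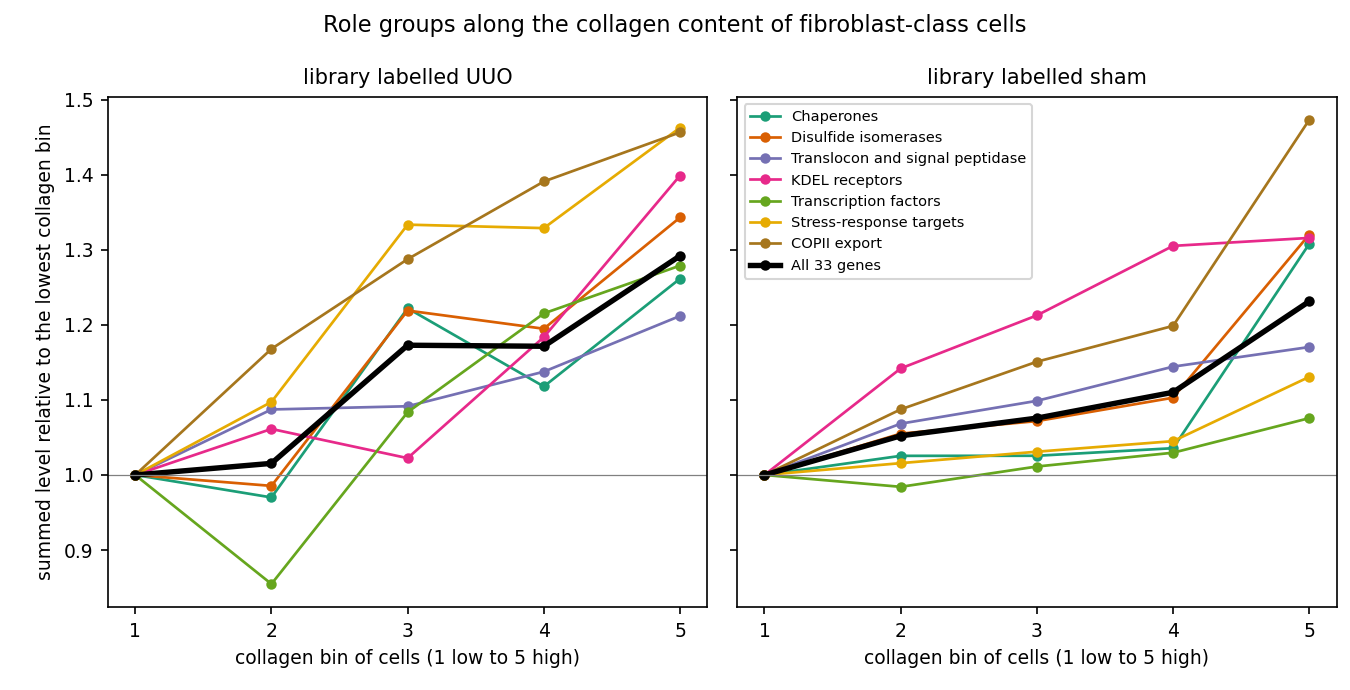
Summed level of each role group in bins of fibroblast-class cells by collagen share (bin 1 low, bin 5 high), relative to the lowest bin of the same library, in the library labelled UUO (left, 140 cells per bin) and in that labelled sham (right, 1665 cells per bin). Every group ends above 1 in both panels, with export at 1.46 and 1.47 and transcription factors at 1.28 and 1.08.

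Other properties of the cells differed along the bins. Among UUO-labelled cells the 12 dissociation genes stood at 85.5, 106, 159, 244 and 202 per 10000 UMIs from the lowest to the highest bin, and all 12 were at least 1.5-fold higher in the highest bin. Among sham-labelled cells they stood at 127 to 136 with none past that fold, but the highest bin had a median of 5101 UMIs and 4.17% mitochondrial UMIs, where the other bins had 6784 to 9315 UMIs and 1.95% to 2.15%. Fibroblast markers were also higher with more collagen, at 322 per 10000 in the highest against 137 in the lowest bin of the library labelled UUO, and 148 against 112 in that labelled sham. Endothelial markers went the other way, at 2.63 against 7.10 in the library labelled UUO and 2.58 against 3.92 in that labelled sham. So did pericyte or smooth muscle markers, at 2.62 against 5.63 and 3.07 against 3.36. Erythroid markers differed little, at 3.63 against 3.48 and 0.191 against 0.177. With bins drawn within cells above and below the median dissociation-gene share, the median log2 ratio of the 33 genes was 0.33 in the library labelled UUO and 0.32 in that labelled sham. The medians of all genes were then -0.11 and 0.02, beside -0.21 and 0.03 without such groups. With bins drawn likewise by mitochondrial share the median of the 33 genes was 0.33 in the library labelled UUO and 0.30 in that labelled sham (all genes -0.18 and 0.02). Depth, too, differed in the library labelled UUO, with medians of 3271 UMIs in the lowest bin and 4778 to 7244.5 in the others. With bins drawn within 3 classes of depth the medians of the 33 genes were 0.29 in the library labelled UUO and 0.27 in that labelled sham (all genes -0.16 and 0.03). Cells still differ in these properties within such coarse groups. The part of each property, and of the mix of cells that the class markers show, in the result was not tested.

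By role, the export group had the highest ratio in the library labelled sham and nearly so in that labelled UUO. Sec23a had 57.6 CPM in the highest and 28.4 CPM in the lowest bin of the library labelled UUO (ratio 2.03, 1.14 to 3.79, from 54 and 16 UMIs), and 55.8 against 36.5 CPM in that labelled sham (1.53, 1.35 to 1.73). Sec24d and Mia3 had ratios of 1.58 and 1.32 in the library labelled sham, and of 1.26 and 1.25, with intervals that include 1, in that labelled UUO. Thinned to 1000 UMIs per cell, Sec23a had a log2 ratio of -0.18 in the library labelled UUO, so its value there rests on few UMIs. Sec24d and Mia3 had log2 ratios as low as -0.87 and -0.05 there under the alternatives. The export group in that library rests on 148 and 61 UMIs in the highest and lowest bin, so its rank there is not firm.

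Of the receptors, Kdelr3 had the highest ratio in the library labelled UUO, at 72.9, 81.3, 107, 109 and 155 CPM from the lowest to the highest bin (ratio 2.12, 1.49 to 3.08). In sham-labelled cells it had 141, 172, 187, 207 and 200 CPM (ratio 1.42, 1.33 to 1.51). The log2 ratio of 0.49 there fell as low as 0.09 under the alternatives. Kdelr2 had ratios of 1.15 and 1.49, and Kdelr1 of 1.35 and 1.13, in the libraries labelled UUO and sham. All 3 receptors were thus above 1 in both libraries, except that in thinned cells Kdelr1 had log2 ratios of -0.15 and -0.21 in the libraries labelled UUO and sham and Kdelr2 of -0.56 in that labelled UUO.

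The chaperone and isomerase groups reached ratios of 1.26 and 1.34 in the library labelled UUO and 1.31 and 1.32 in that labelled sham. Hspa5 had 715, 819, 1027, 1009 and 1170 CPM over the bins of the library labelled UUO (ratio 1.64, 1.46 to 1.84). In sham-labelled cells it had 475, 464, 463, 448 and 614 CPM, so that only the highest bin stood apart (ratio 1.29, 1.25 to 1.34). P4hb had 159, 183, 191, 205 and 238 CPM over the bins of the library labelled sham (ratio 1.5, 1.41 to 1.59), but 112 against 99.6 CPM in the highest and lowest bin of that labelled UUO (1.13, 0.806 to 1.59). Canx had 192 CPM in the highest and 240 CPM in the lowest bin of UUO-labelled cells, with an interval of the ratio that includes 1.

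Translocation genes as a group had a ratio of 1.21 in the library labelled UUO, the lowest of the roles there, and 1.17 in that labelled sham. Ssr4 had 366 against 236 CPM in the highest and lowest bin of the library labelled UUO (ratio 1.55, 1.26 to 1.91) and 360 against 295 CPM in that labelled sham. The signal peptidase genes Spcs1 and Spcs2 stayed near 1, with ratios of 0.868 and 1.11 in the library labelled UUO and 1.03 and 0.939 in that labelled sham.

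The transcription factors and stress targets were the least uniform. Creb3l1 had 46.0, 48.2, 58.9, 61.7 and 72.2 CPM over the bins of the library labelled sham (ratio 1.57, 1.40 to 1.75), the only gene of the 33 at 1.5-fold or more there with 5 CPM added. Its log2 ratio of 0.60 in that library fell as low as 0.14 under the alternatives. Among UUO-labelled cells Creb3l1 had 132 against 99.6 CPM in the highest and lowest bin (1.33, 0.962 to 1.86). Creb3l2 had 20.3 against 44.5 CPM there, from 19 and 25 UMIs, a ratio of 0.456 (0.238 to 0.863). Xbp1 lay on opposite sides of 1, with 311 against 220 CPM in the highest and lowest bin of the library labelled UUO (1.41, 1.14 to 1.75), and 241, 228, 222, 221 and 219 CPM from the lowest to the highest bin of that labelled sham (0.906, 0.858 to 0.957). Ddit3 had ratios of 0.909 and 0.964 in the libraries labelled UUO and sham, both with intervals that include 1, and Sdf2l1 of 1.08 and 1.01. Manf reached 348 against 206 CPM (1.69, 1.36 to 2.10) in the library labelled UUO and 306 against 270 CPM (1.13) in that labelled sham.

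**Figure D5:**
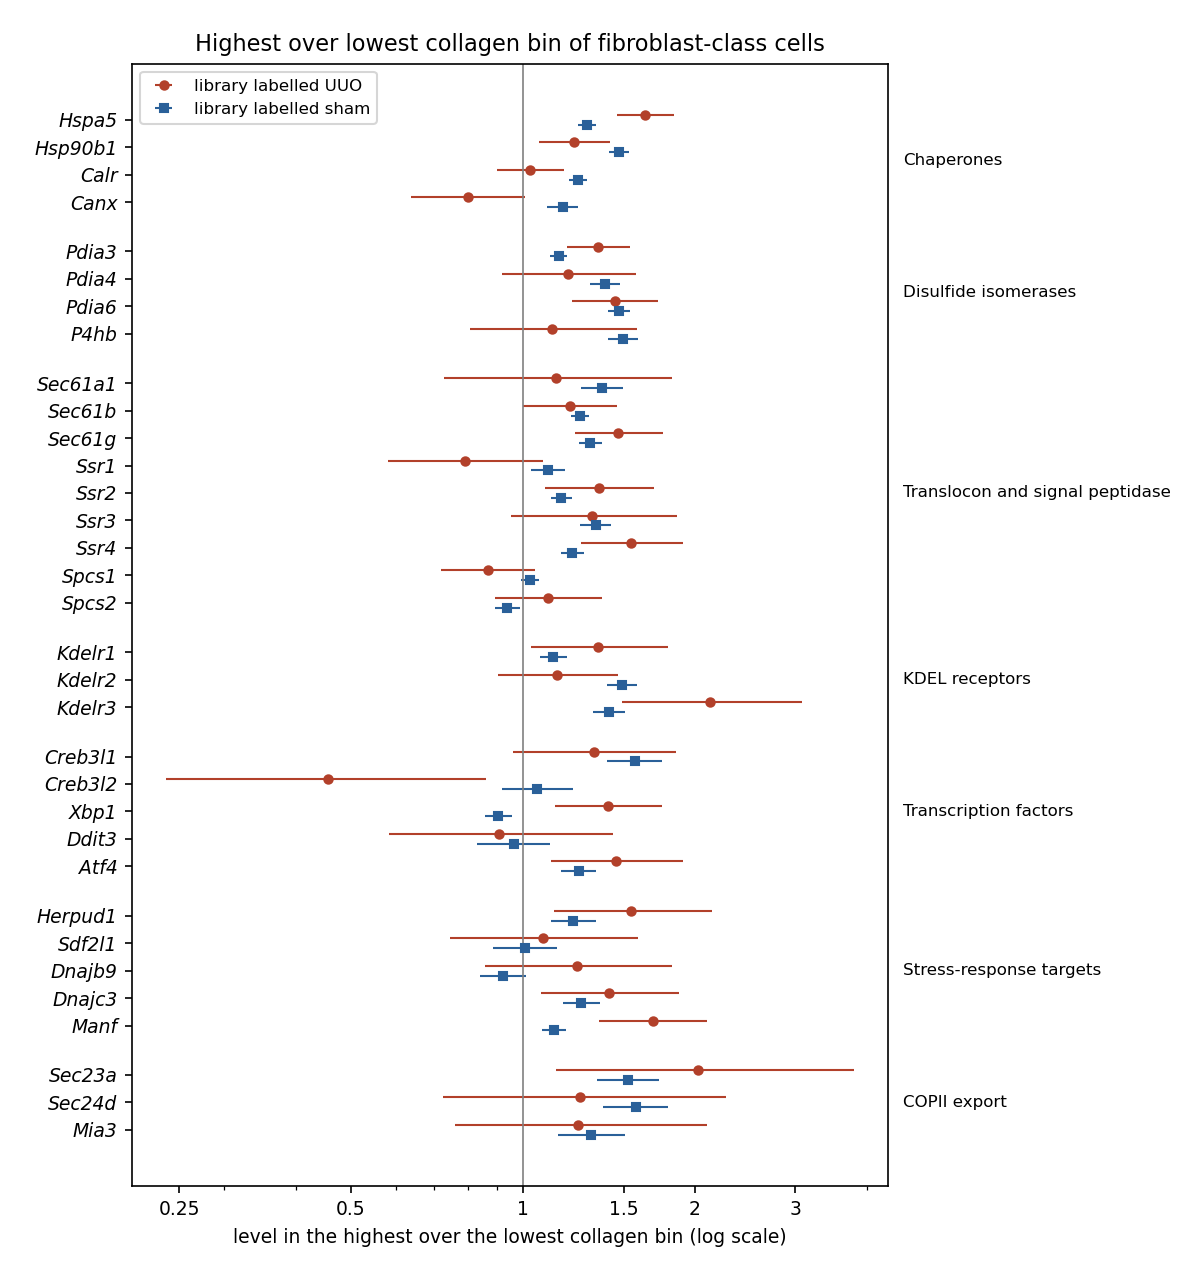
Ratio of the level in the highest over the lowest collagen bin for each of the 33 genes, on a log axis with exact 95% intervals, in the library labelled UUO (circles) and in that labelled sham (squares). Points lie to the right of 1 for 28 genes in the library labelled UUO and for 29 in that labelled sham, and Xbp1 lies at 1.41 and 0.906.

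No gene stayed past 1.5-fold under all 12 alternatives in either library. In the library labelled sham the 6 genes with an ERSE match had ratios of 1.17 to 1.47 and the 3 with a UPRE match ratios of 1.42 to 1.58. Among UUO-labelled cells they spanned 0.8 to 1.64 and 1.26 to 2.12.

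Other lists of the pathway were read along the same bins. Of all genes tested, 13.3% were at least 1.5-fold higher and 26.1% lower in the highest bin of the library labelled UUO. The shares in that labelled sham were 6.34% and 2.76%. Ratios above 1 made up 37.1% and 55.1% of all genes in the libraries labelled UUO and sham. Collagen folding partners had 7 of 14 at least 1.5-fold higher in the highest bin of the library labelled sham and all 14 with ratios above 1, led by P4ha3 at 38.3 against 7.46 CPM and Plod2, a lysyl hydroxylase, at 93.2 against 24.5 CPM. For UUO-labelled cells 3 of 13 were higher and 1 lower, led by Serpinh1, the collagen chaperone HSP47, at 2212 against 731 CPM. Lman1, a cargo receptor, led the other COPII genes of the library labelled sham, at 148 against 80.9 CPM, with 2 of 18 past 1.5-fold. Atf4 targets had 8 of 12 higher and 1 lower in the library labelled UUO, with Atf3 at 763 against 171 CPM, whereas 1 of 11 was higher and 1 lower in that labelled sham, where Atf3 stood at 108 against 144 CPM. The dissociation genes were likewise past 1.5-fold higher for 12 of 12 in the library labelled UUO and 0 of 12 in that labelled sham. Their part in the values of the Atf4 targets was not tested. COPI coat genes, which serve the retrieval route of the KDEL receptors, had 8 of 10 ratios above 1 in the library labelled UUO and 9 of 10 in that labelled sham, and 1 and 0 of them at 1.5-fold or more. Other lists lay the other way among UUO-labelled cells. Genes of signal recognition and other translocation steps had 11 of 15 ratios below 1 there, with 2 past 1.5-fold higher and 1 lower, and 3 of 15 below 1 among sham-labelled cells, with none past that fold. The stress sensors and the proteases that cut Atf6 had 4 of 5 ratios below 1 among UUO-labelled cells, with 2 past 1.5-fold lower, Mbtps2 at 74.7 against 138 CPM and Atf6 at 6.40 against 14.2 CPM, and 4 of 4 above 1 among sham-labelled cells. Oligosaccharyltransferase genes had 6 of 10 and 8 of 10 ratios above 1 in the libraries labelled UUO and sham, with 1 and 0 past 1.5-fold higher. Other Atf6 and Xbp1 targets had 6 of 18 higher and 1 lower among UUO-labelled cells, and 2 of 18 higher among sham-labelled ones.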

How the data were processed

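Kidneys were digested with Liberase TL and DNAse, sorted for both PDGF receptors and run on 10x Chromium version 2, per the labels' protocols. The authors deposited estimated counts of UMIs per cell and gene, made with alevin in Salmon 0.13.1 on mm10, per the submitters' processing notes; 91.2% of nonzero values in the library labelled UUO and 92.3% in that labelled sham were whole (within 1e-06), and sums were rounded. Ddit3 has 2 overlapping entries, which were summed. Of the rest, Manf, Hsp90b1 and Pdia4 overlap a gene on the same strand.

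Cells with at least 500 UMIs, 300 genes and at most 20% mitochondrial UMIs were kept. Doublets were scored with Scrublet in Scanpy 1.11.5, and the highest 0.8% per 1000 cells were removed (9 cells in the library labelled UUO, 908 in that labelled sham). A cell joined a class with at least 3 of its markers at 40 per 10000 UMIs and no second such class. Fibroblast-class cells needed 4 of 12 markers at 50 per 10000 and no other class at 25. In the library labelled UUO 86 cells lay between 40 and 60 per 10000, and in that labelled sham 381. The scoring rule was set after marker levels were seen, and no described gene or fibrillar collagen is a marker.

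Counts were summed per class and library as CPM, with exact Poisson intervals for a level, exact conditional binomial intervals for a ratio and Clopper-Pearson intervals for a share of cells. Log2 ratios have 5 CPM added, and genes at 10 CPM or more in either sum were compared. Genes outside the 33 were named as the extremes of their lists. In a simulation of the comparison of UUO-labelled with sham-labelled cells, the interval held the true ratio for 95.7% of 8391 genes. Its counts were drawn as Poisson, which the interval assumes, so it checks the calculation and not the spread between cells or animals. TMM factors came from edgeR 4.0.16; Python 3.11.15, numpy 2.4.6 and scipy 1.17.1 did the rest. Gene positions are from GENCODE M21. The genes and lists were chosen with earlier results of these data known.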

Additional observations from a re-analysis of the deposited data

Results flagged for a closer look

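For a pair of genes the same contrast lay on opposite sides of 1 in the libraries, with both counting intervals clear of 1. Xbp1 in the highest over the lowest collagen bin had a log2 ratio of 0.49 in the library labelled UUO and -0.14 in that labelled sham. Its log2 ratio ranged over the alternatives between 0.42 and 0.73 in the library labelled UUO and between -0.20 and -0.10 in that labelled sham. Sdf2l1 in endothelial over fibroblast-class cells had a log2 ratio of -0.84 in the library labelled UUO (42.4 against 79.9 CPM) and 0.38 in that labelled sham (52.2 against 39.0 CPM). The log2 ratio of Sdf2l1 ranged between -1.10 and -0.51 in the library labelled UUO and between 0.13 and 0.59 in that labelled sham. Its UUO-labelled endothelial value rests on few UMIs, seen in 10 of 65 cells. With 1 library per group these differences were not tested.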

How the results depend on the processing

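No paired analysis was possible because each group has 1 library. Intervals cover counting error only, the UUO-labelled library is the smaller, and its bins and minor classes rest on 65 to 140 cells. For the library labelled UUO over that labelled sham, 258 of 363 alternative log2 ratios moved by less than their counting interval, 105 by more, and no gene past 1.5-fold changed sign. The 6 genes lower became 3 in cells without a UMI of Hspa1a or Hspa1b and 2 in cells of 3000 to 9000 UMIs, a choice made after seeing the data, as were the splits by dissociation-gene and mitochondrial share. TMM scaling shifted all genes, and with it the lower counts became 22 (of 14) and 16 (of 9) in endothelial cells of the libraries labelled UUO and sham, and 19 (of 10) in loop or distal tubule cells. Higher counts were 3 in UUO-labelled endothelial cells when thinned (0 otherwise), and 1 in sham-labelled ones at 1000 UMIs, with 1 CPM added, with stricter markers or with equal weight per cell. They were 2 with equal weight and 0 thinned in proximal tubule cells, and 1 thinned in loop or distal tubule cells. In the collagen bins of the library labelled UUO, TMM gave 16 higher (median of all genes 0.04, beside -0.21), and the count lower was 0 with equal weight and 2 thinned, where Sec23a turned to -0.18. In those of the library labelled sham the 1 higher became 0 under TMM or without doublet removal, 2 at 1000 UMIs, with only Col1a1 and Col1a2 as collagen or within dissociation-gene groups, 3 with 1 CPM added or within mitochondrial groups, and 6 with equal weight or thinned. The cause of these moves was not tested.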
